A study of Mus musculus with 12 samples.

Results

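The core autophagy genes are the 37 genes whose products start, build, lipidate and load the autophagosome, and they were taken by symbol from the 48440 genes of a count table. The cells were mouse macrophages cultured from bone marrow, and their RNA was sequenced after exome-capture library preparation, which enriches coding RNA with probes. The 6 groups were cells labelled CKO given IFN-γ at 100 U/mL for 24 h, CKO given IL-4 at 20 ng/mL for 24 h, and untreated CKO, then WT given IFN-γ, WT given IL-4 and untreated WT, with 2 libraries each. The labels do not expand CKO, name its promoter or Cre, or give strain, age or the number of animals, and the series title names IRF8 in macrophages and breast cancer. Where the 2 libraries of a group are not separate animals or cultures, the p-values measure technical spread. Every one of the 37 genes was kept by the filter on low counts, along with 16292 genes in all, and their counts ran from 66 for Map1lc3a in its lowest library to 17399 for Sqstm1 in its highest.

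Macroautophagy encloses cytoplasm in a double membrane and delivers it to the lysosome. The ULK kinases with ATG13, ATG101 and FIP200 (Rb1cc1) start the process, and the class III PI3-kinase VPS34 (Pik3c3), held by PIK3R4 and Beclin 1, marks the new membrane, with ATG14 for autophagosomes and UVRAG for endosomes. WIPI proteins read that mark, ATG2 proteins transfer lipid and ATG9A carries membrane. ATG7, ATG10 and ATG3 work like ubiquitin enzymes to join ATG12 to ATG5 and, with ATG16L1, to attach LC3 and GABARAP proteins to lipid, while ATG4 proteases prime and remove them. Receptors such as p62 (Sqstm1), NBR1, optineurin, CALCOCO1 and TAX1BP1 bring ubiquitin-tagged or other cargo to LC3. In macrophages the pathway clears bacteria and damaged mitochondria, IFN-γ is known to engage it through immunity-related GTPases, and IRF8 has been reported to activate autophagy genes in mouse macrophages. Transcript levels do not measure autophagic flux, since LC3 and p62 are also set by lipidation and breakdown of the protein.

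Promoters from RefSeq (GRCm38.p6) matched 31 of the 37 genes, with 35 start sites, and the 250 bases before each start were searched on both strands for 3 motifs. The stretches shown belong to Ulk2 and Sqstm1, lower in all 4 cytokine comparisons, to Gabarapl1 and Nbr1, higher in untreated CKO, and to Atg3, higher with IL-4 in WT. Each stops before the gene's first exon in GENCODE M21, and capitals mark matches to the searched motifs. Ulk2 is shown for chr11:61855093-61855342, minus strand, Sqstm1 for chr11:50210828-50211070, minus strand, Gabarapl1 for chr6:129532942-129533159, plus strand, Nbr1 for chr11:101551857-101552106, plus strand, and Atg3 for chr16:45158579-45158784, plus strand.
Ulk2: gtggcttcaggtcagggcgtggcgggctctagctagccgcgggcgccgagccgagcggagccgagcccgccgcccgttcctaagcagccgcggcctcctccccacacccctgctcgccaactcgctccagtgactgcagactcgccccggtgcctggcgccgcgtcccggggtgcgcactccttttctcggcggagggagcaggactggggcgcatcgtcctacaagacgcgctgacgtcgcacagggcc
Sqstm1: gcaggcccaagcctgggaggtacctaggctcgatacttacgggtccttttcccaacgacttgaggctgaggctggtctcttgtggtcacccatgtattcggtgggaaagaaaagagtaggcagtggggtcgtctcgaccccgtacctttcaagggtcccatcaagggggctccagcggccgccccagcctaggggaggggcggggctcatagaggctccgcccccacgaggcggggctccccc
Gabarapl1: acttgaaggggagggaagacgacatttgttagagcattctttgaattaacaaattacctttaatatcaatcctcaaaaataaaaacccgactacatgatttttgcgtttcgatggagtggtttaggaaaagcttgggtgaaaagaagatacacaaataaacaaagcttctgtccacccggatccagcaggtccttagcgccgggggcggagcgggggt
Nbr1: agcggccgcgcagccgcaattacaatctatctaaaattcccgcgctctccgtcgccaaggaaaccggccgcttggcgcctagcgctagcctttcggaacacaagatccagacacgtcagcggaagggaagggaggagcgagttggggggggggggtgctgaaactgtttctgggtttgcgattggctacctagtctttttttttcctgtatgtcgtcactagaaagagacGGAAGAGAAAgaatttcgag
Atg3: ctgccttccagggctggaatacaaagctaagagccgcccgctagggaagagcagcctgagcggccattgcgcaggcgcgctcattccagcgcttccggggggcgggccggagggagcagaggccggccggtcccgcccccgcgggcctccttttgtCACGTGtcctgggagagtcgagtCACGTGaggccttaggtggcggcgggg
The composite ETS-IRF element, searched as GGAANNGAAA, was in 2 of the 35 windows (5.71%), of Atg5 and Nbr1, against 2.3% of all 32851 RefSeq windows. The core of the interferon-stimulated response element, searched as GAAANNGAAA, was in 0 of the 35 windows, against 2.98% of all. The E-box bound by TFEB-family factors, searched as CACGTG, was in 3 windows (8.57%), of Atg3, Atg5 and Atg7, against 6.02% of all. The ETS-IRF and response-element patterns can overlap, since both end in GAAA. Atg3 held the E-box at 94 and at 71 bases before its RefSeq start, which lies past the end of the stretch shown. The ETS-IRF match in the Nbr1 window shown began 20 bases before the start. The Ulk2, Sqstm1 and Gabarapl1 windows held none of the 3 letter patterns. A match is a description of letters and not a bound site.

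Library totals ran from 21287725 to 32717379 counts, and the 37 genes took 0.21% to 0.328% of them. Irf8 (the factor in the title) was higher in the libraries labelled CKO, at 139 to 1200 CPM (counts per 1000000, scaled by TMM) over the 3 treatments, against 65.7 to 513 CPM in WT. A count over the whole gene cannot show a deleted exon, so whether CKO stands for loss of Irf8 was not tested. Each direction below is therefore one between labels. Lyz2, a macrophage lysozyme, was at 12.6 to 28 CPM in CKO and 5840 to 11900 CPM in WT. The 8 macrophage markers, all detected in each group, summed to 4060 to 5340 CPM in CKO and 9630 to 15200 CPM in WT, and the 7 of them other than Lyz2 summed the other way, to 4050 to 5330 CPM in CKO and 3370 to 4000 CPM in WT. The 8 neutrophil markers, all detected, summed to 156 to 370 CPM in CKO and 29.7 to 65.8 CPM in WT, and the 6 dendritic cell markers to 1.9 to 11 CPM in CKO and 1.88 to 60.2 CPM in WT. Most of the dendritic cell sum in IFN-γ WT was Clec9a, at 43.7 and 52.7 CPM, and each other marker had at most 5 CPM there. B cell markers summed to at most 4.93 CPM in any library, T cell, mast cell, erythroid and stromal markers to at most 0.446 CPM, and Cd3e and Cd3g had no count in any group. Untreated CKO library 1 stood apart, with 1.52% mitochondrial counts against 2.12% to 3.25% in the other libraries. The RNA Gm42418, which overlaps ribosomal repeats, took 1.28% of counts in untreated CKO library 1, 1.05% in untreated WT library 1 and 0.753% in IFN-γ WT library 1, against at most 0.174% in the other 9. The part of these features in the results was not tested, and in bulk RNA fewer cells of a type and less RNA per cell cannot be told apart.

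Levels of different genes were compared as CPM per kb of merged GENCODE M21 exons. On that scale the ATG8 protein Gabarap (mean 143, range 89.5 to 164 over 12 libraries) and the receptor Sqstm1 (mean 127, range 104 to 160) stood above all other members and overlapped each other. Gabarapl1 followed at a mean of 37.1 CPM per kb (22.4 to 58.6), then Tax1bp1 at 27.1 (24.3 to 31.7), Nbr1 at 21.7 (16 to 38), Atg5 at 21.2 (16.7 to 25.7) and Atg3 at 21 (17.5 to 27.2). Those last 4 ranges overlapped, so their order does not go beyond the spread of the libraries. The LC3 genes were unequal, with Map1lc3b at a mean of 16 CPM per kb (11.6 to 24.1) and Map1lc3a at 3.62 (2.31 to 5.3), ranges that did not overlap. In the kinase complex, Atg101 had the highest mean at 13.3 CPM per kb, then Ulk2 at 8.92, Atg13 at 5.48, Rb1cc1 at 5.33 and Ulk1 at 3.73. Neighbours in that order had overlapping ranges, and the range of Ulk1 (1.94 to 7.49) also met that of Ulk2 (6.06 to 16.2). The lowest members were Atg4d at a mean of 1.92 CPM per kb (1.4 to 2.33) and Atg16l2 at 1.45 (0.952 to 2.17). Probe capture and merged exon lengths also enter this scale, and their part was not tested.

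**Figure D1:**
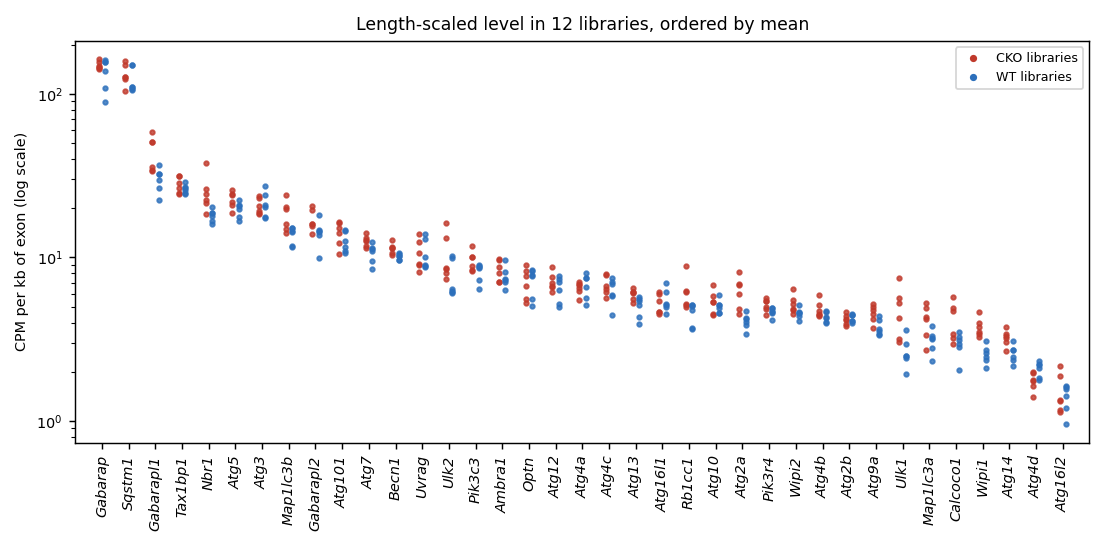
Level of each of the 37 genes in CPM per kb of exon on a log axis, with genes in order of their mean over 12 libraries and a point for each library. Gabarap (mean 143) and Sqstm1 (mean 127) lie above the other 35 genes, and Atg16l2 (mean 1.45) is lowest.

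Some counts are uncertain because the strand setting of the counting is not given in the sources used here. Exons of Cntd1, on the opposite strand, overlap 43.9% of the exon length of Becn1, 1700101I11Rik overlaps 28.3% of Gabarapl1, Kri1 19.3% of Atg4d, Gm45187 17.6% of Uvrag and Mrnip 17.3% of Sqstm1. Gm29253, on the same strand, overlaps 31.8% of Atg9a. Atg4a has a copy, Atg4a-ps, that matches 2115 of 2202 transcript bases at 99.3% identity, and Gabarapl2 has processed pseudogenes that match up to 352 of 1677 bases at 96.6% to 99.4% identity. The highest count of any of these copies was 106, for Atg4a-ps.

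**Figure D2:**
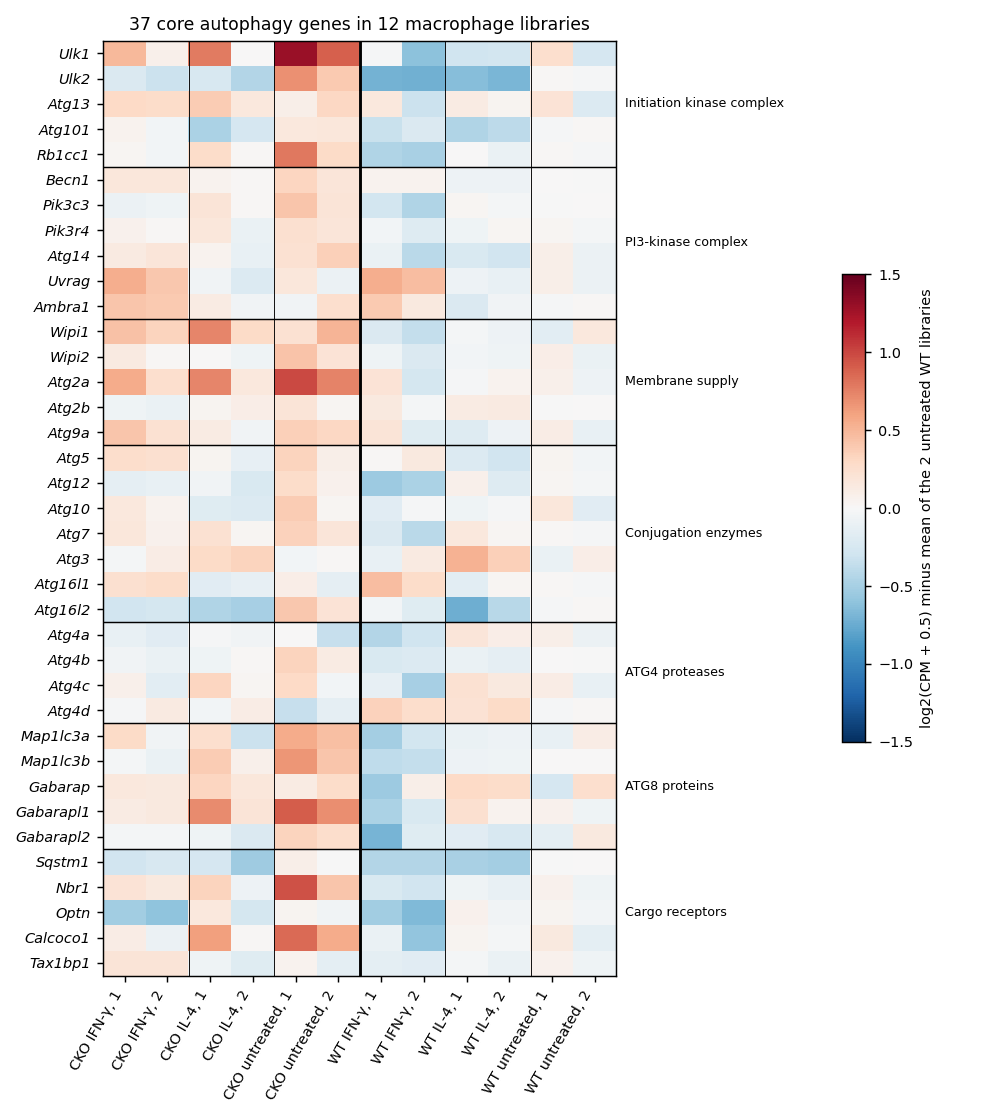
Expression of the 37 genes in each of 12 libraries, as log2(CPM + 0.5) minus the mean of the 2 untreated WT libraries, with genes grouped by role and CKO libraries left of WT libraries. Ulk1, Atg2a, Gabarapl1 and Nbr1 are highest in the column of untreated CKO library 1, and Ulk2 and Sqstm1 are lower in the cytokine columns than in the untreated columns of the same genotype.

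Genotype was compared first, CKO against WT within each treatment, with edgeR's quasi-likelihood test over all genes and Benjamini-Hochberg adjustment at 0.05. In untreated cells 8 of the 37 genes were higher in CKO and 0 were lower. Over all genes tested, 18% were called in this comparison, 8.6% higher and 9.37% lower. The 8 were the kinase complex genes Ulk1, Ulk2 and Rb1cc1, the lipid transfer gene Atg2a, the ATG8 genes Gabarapl1 and Map1lc3b, and the receptor genes Nbr1 and Calcoco1. The median log2 fold change of the 37 was 0.23, against 0 over all genes tested, and 31 of the 37 were positive against 50.4% of all genes. At an unadjusted p under 0.05, 18 members were higher and 0 lower, where 16.2% of all genes were higher and 17.7% lower, and DESeq2 called 8 higher and 0 lower.

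Ulk1 (ENSMUSG00000029512.11; GRCm38 chromosome 5, 110784488 to 110810097, minus strand), the kinase that starts autophagy when nutrients are short, had 48.6 and 36.7 CPM in untreated CKO, against 23.4 and 16.3 CPM in untreated WT. Both CKO libraries lay above both WT libraries, with a log2 fold change of 1.1 ± 0.29 (SE; edgeR adjusted p = 0.0283). Its paralog Ulk2 (ENSMUSG00000004798.14; chromosome 11, 61775649 to 61855073, minus strand) had 97 and 78.8 CPM in CKO, against 60.9 and 59.4 CPM in WT, a log2 fold change of 0.55 ± 0.11 (edgeR adjusted p = 0.0089). Rb1cc1 (ENSMUSG00000025907.14; chromosome 1, 6206197 to 6276648, plus strand), the scaffold of the kinase complex, had 130 and 91.6 CPM in CKO, against 75.6 and 74.1 CPM in WT. CKO library 1 was the higher of its group in all 3 genes, and the Rb1cc1 log2 fold change was 0.56 ± 0.15 (edgeR adjusted p = 0.0226).

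Atg2a (ENSMUSG00000024773.14; chromosome 19, 6241668 to 6262335, plus strand), which moves lipid into the growing membrane, had 62.5 and 52.6 CPM in untreated CKO, against 32.9 and 29.7 CPM in untreated WT. The groups did not overlap and the log2 fold change was 0.88 ± 0.2 (edgeR adjusted p = 0.0152). Its paralog Atg2b had 62.7 and 56.1 CPM in CKO, against 54.6 and 55 CPM in WT, and was not past the test (log2 fold change 0.12 ± 0.1, edgeR adjusted p = 0.43).

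Gabarapl1 (ENSMUSG00000030161.8; chromosome 6, 129533160 to 129542346, plus strand), an ATG8 protein of the GABARAP branch, had 118 and 102 CPM in untreated CKO, against 65.5 and 60.2 CPM in untreated WT (log2 fold change 0.81 ± 0.16, edgeR adjusted p = 0.00632). Map1lc3b, the LC3 protein commonly used to mark autophagosomes, had 181 and 152 CPM in CKO, against 114 CPM in both WT libraries (0.55 ± 0.12, edgeR adjusted p = 0.00958). Neither gene overlapped between groups. The other ATG8 genes were not past the test, with log2 fold changes of 0.55 ± 0.22 for Map1lc3a, 0.29 ± 0.16 for Gabarapl2 and 0.17 ± 0.19 for Gabarap.

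Nbr1 (ENSMUSG00000017119.19; chromosome 11, 101552149 to 101581951, plus strand), a receptor for ubiquitin-tagged cargo, had 261 and 180 CPM in untreated CKO, against 140 and 129 CPM in untreated WT (log2 fold change 0.71 ± 0.16, edgeR adjusted p = 0.0138). Calcoco1, a receptor for endoplasmic reticulum and Golgi membrane, had 33 and 26.9 CPM in CKO, against 20.1 and 16.3 CPM in WT (0.72 ± 0.22, edgeR adjusted p = 0.0424). Library 1 again gave the higher CKO value of both genes. The most abundant receptor, Sqstm1, had 538 and 502 CPM in CKO, against 503 and 506 CPM in WT, and the groups overlapped (0.04 ± 0.1, edgeR adjusted p = 0.797). Optn and Tax1bp1 had log2 fold changes of −0.01 ± 0.14 and −0.05 ± 0.1, not past the test.

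The 6 PI3-kinase genes, the 7 conjugation genes and the 4 ATG4 protease genes had no call by edgeR or DESeq2 in untreated cells, and 3, 2 and 1 of them had an unadjusted p under 0.05 (33.9% of all genes did), with log2 fold changes from −0.25 for Atg4d to 0.32 for Atg16l2. The untreated calls depended on single libraries, and the number of calls over all genes tested moved in the same directions in these runs. Without untreated CKO library 1, the library with low mitochondrial counts, 1 gene (Gabarapl1) stayed higher, and the log2 fold changes of the 7 lost calls were 0.89 for Ulk1, 0.76 for Atg2a, 0.57 for Calcoco1, 0.44 for Nbr1, 0.42 for Map1lc3b, 0.4 for Ulk2 and 0.3 for Rb1cc1. That library was the higher of its pair for 29 of the 37 genes, by a median of 0.2 on the log2 scale. The share of all genes higher in it was not computed. The median of the 37 between CKO and WT was 0.23 with all libraries and 0.2 without that library, against 0 over all genes. Without untreated CKO library 2 there were 15 calls, the 8 among them, without untreated WT library 1 there was 1, without untreated WT library 2 there were 0, and without the 3 libraries of high Gm42418 share there were 0.

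After IFN-γ, 6 of the 37 genes were higher in CKO than in WT and 0 were lower. Over all genes tested, 18.4% were called, 10.4% higher and 8.01% lower. The 6 were Wipi1, Rb1cc1, Ulk2, Atg7, Atg12 and Tax1bp1, and Ulk2 and Rb1cc1 were also among the 8 of untreated cells. The median log2 fold change of the 37 was 0.29 against 0.02 over all genes, 32 of the 37 were positive against 51.6% of all genes, and at an unadjusted p under 0.05 15 were higher and 0 lower, where 17.3% of all genes were higher and 15.1% lower. DESeq2 called 7 higher, the 6 and Gabarapl1, and 0 lower.

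Wipi1 (ENSMUSG00000041895.15; chromosome 11, 109573331 to 109611967, minus strand), which binds the lipid mark of the new membrane, had 16.6 and 15.4 CPM in IFN-γ CKO, against 10.4 and 9.35 CPM in IFN-γ WT (log2 fold change 0.69 ± 0.18, edgeR adjusted p = 0.0175). Ulk2 had 51.7 and 48.1 CPM in CKO, against 36.6 and 36.2 CPM in WT (0.45 ± 0.12, edgeR adjusted p = 0.0189). Rb1cc1 had 76.1 and 72.6 CPM in CKO, against 54.7 and 53.3 CPM in WT (0.46 ± 0.15, edgeR adjusted p = 0.0474). All 3 genes kept every CKO library above every WT library, but 33 of the 37 genes, called or not and in either direction, had no overlap here. The share of all genes tested without overlap was not computed, so that number has nothing to be set against.

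Atg7 (ENSMUSG00000030314.16; chromosome 6, 114643097 to 114860614, plus strand), the E1-like enzyme of both conjugation systems, had 88 and 81.6 CPM in IFN-γ CKO, against 66.7 and 58.9 CPM in IFN-γ WT (log2 fold change 0.43 ± 0.11, edgeR adjusted p = 0.017). Atg12, the modifier joined to ATG5, had 50.7 and 51.7 CPM in CKO, against 38.2 and 40.1 CPM in WT (0.39 ± 0.12, edgeR adjusted p = 0.0427). Tax1bp1 (ENSMUSG00000004535.12; chromosome 6, 52713729 to 52766780, plus strand), a receptor for ubiquitin-tagged cargo and bacteria, had 316 and 317 CPM in CKO, against 249 and 246 CPM in WT (0.35 ± 0.1, edgeR adjusted p = 0.025). For these 3 genes the WT libraries did not reach the CKO range. The other 5 genes of the conjugation role were not past the test, with log2 fold changes of −0.16 for Atg16l2, −0.12 for Atg16l1 and 0.03 to 0.21 for Atg3, Atg5 and Atg10.

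Several members with comparable or larger estimates after IFN-γ missed the threshold. Gabarapl1 (log2 fold change 0.48 ± 0.16, edgeR adjusted p = 0.0526) and Atg14 (0.43 ± 0.14, edgeR adjusted p = 0.0527) missed it narrowly. Nbr1 had 155 and 149 CPM in IFN-γ CKO, against 115 and 110 CPM in IFN-γ WT (0.43 ± 0.16, edgeR adjusted p = 0.0901). Ulk1 had 27.5 and 20.6 CPM in IFN-γ CKO, against 19.3 and 12.6 CPM in IFN-γ WT (log2 fold change 0.6 ± 0.3, edgeR adjusted p = 0.195). Map1lc3a had 5.12 and 3.94 CPM in CKO, against 2.73 and 3.31 CPM in WT (0.58 ± 0.23, edgeR adjusted p = 0.109). Gabarap had 270 and 266 CPM in CKO, against 165 and 256 CPM in WT, where library 1 was well under library 2 (0.35 ± 0.19, edgeR adjusted p = 0.243). The calls after IFN-γ depended on single libraries. Wipi1, Rb1cc1, Ulk2, Atg7, Atg12 and Tax1bp1 each lost their call without either IFN-γ CKO library and without IFN-γ WT library 2. Without IFN-γ WT library 1 only Wipi1 and Atg7 among them kept it. The number of calls also moved without IL-4 WT library 1 or untreated CKO library 2.

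After IL-4 no member was past the test between CKO and WT, in either direction. Over all genes tested, 2.96% were called in this comparison, 1.41% higher and 1.55% lower, and DESeq2 called 0 members, while 5 members were higher and 0 lower at an unadjusted p under 0.05, where 6.62% of all genes were higher and 7.52% lower. The median log2 fold change of the 37 was 0.08, against −0.01 over all genes. Ulk1 had 34 and 19.6 CPM in IL-4 CKO, against 15.8 and 16.1 CPM in IL-4 WT (0.74 ± 0.3, edgeR adjusted p = 0.277). Wipi1 had 20.4 and 14.9 CPM in CKO, against 11.9 and 11.5 CPM in WT (0.59 ± 0.17, edgeR adjusted p = 0.108), and Atg2a had 52.4 and 34.8 CPM in CKO, against 30.8 and 32.5 CPM in WT (0.46 ± 0.2, edgeR adjusted p = 0.338). The CKO libraries of these genes were above the WT libraries but far apart from each other, with library 1 the higher. Library 1 was the higher of the IL-4 CKO pair for 31 of the 37 genes, by a median of 0.18 on the log2 scale. The share of all genes higher in it was not computed.

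**Figure D3:**
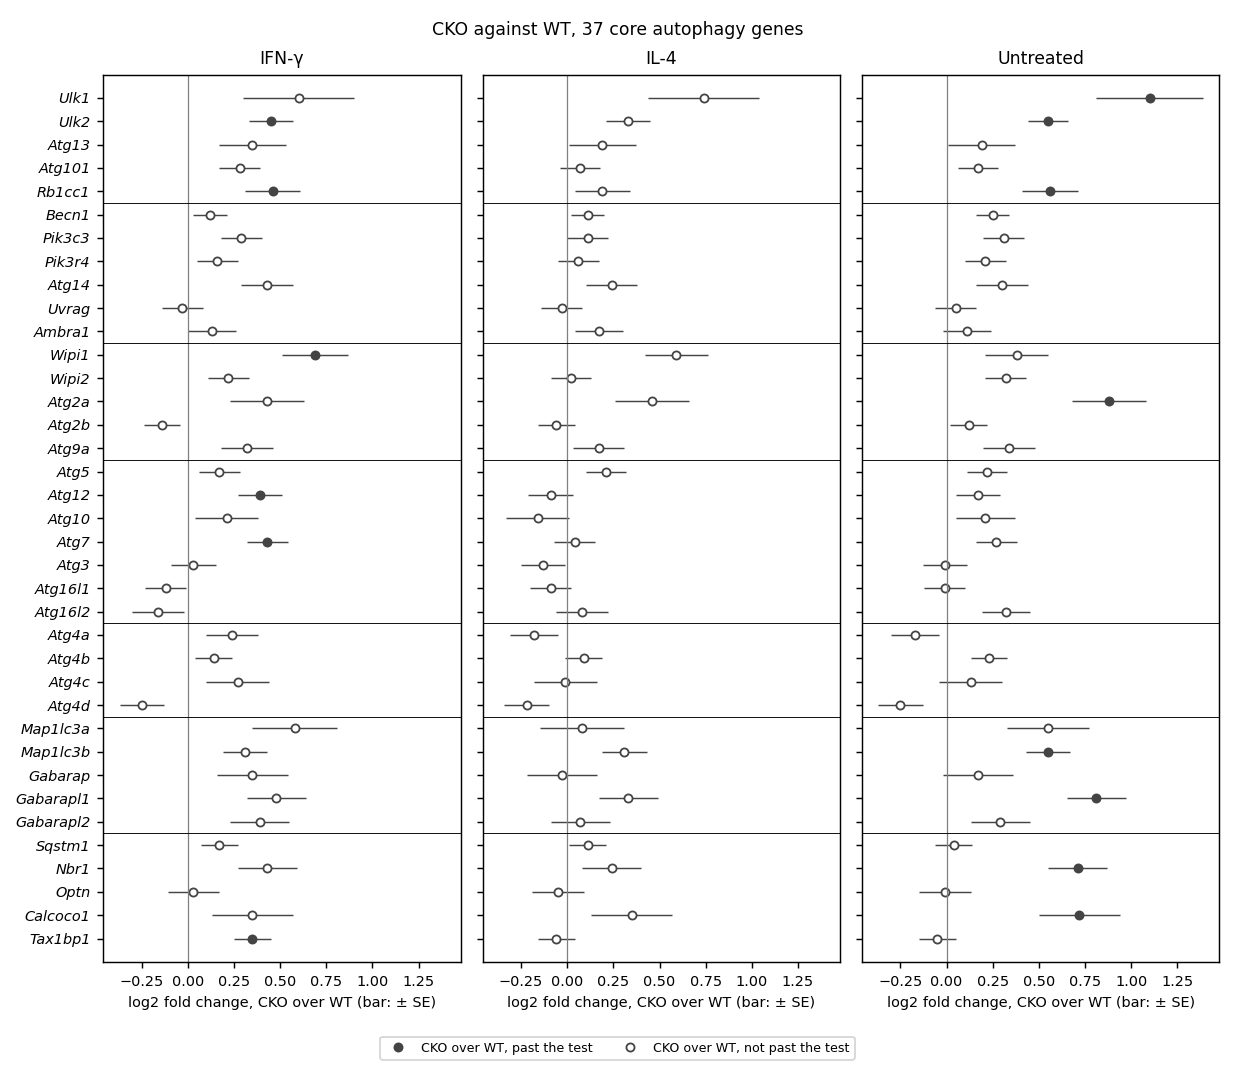
log2 fold change of CKO over WT for each of the 37 genes after IFN-γ, after IL-4 and untreated, with bars of ± 1 SE, filled points past the test and open points not past it. Of the 37 genes, 6 are filled after IFN-γ, 0 after IL-4 and 8 in untreated cells, and each filled point lies right of 0.

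**Figure D4:**
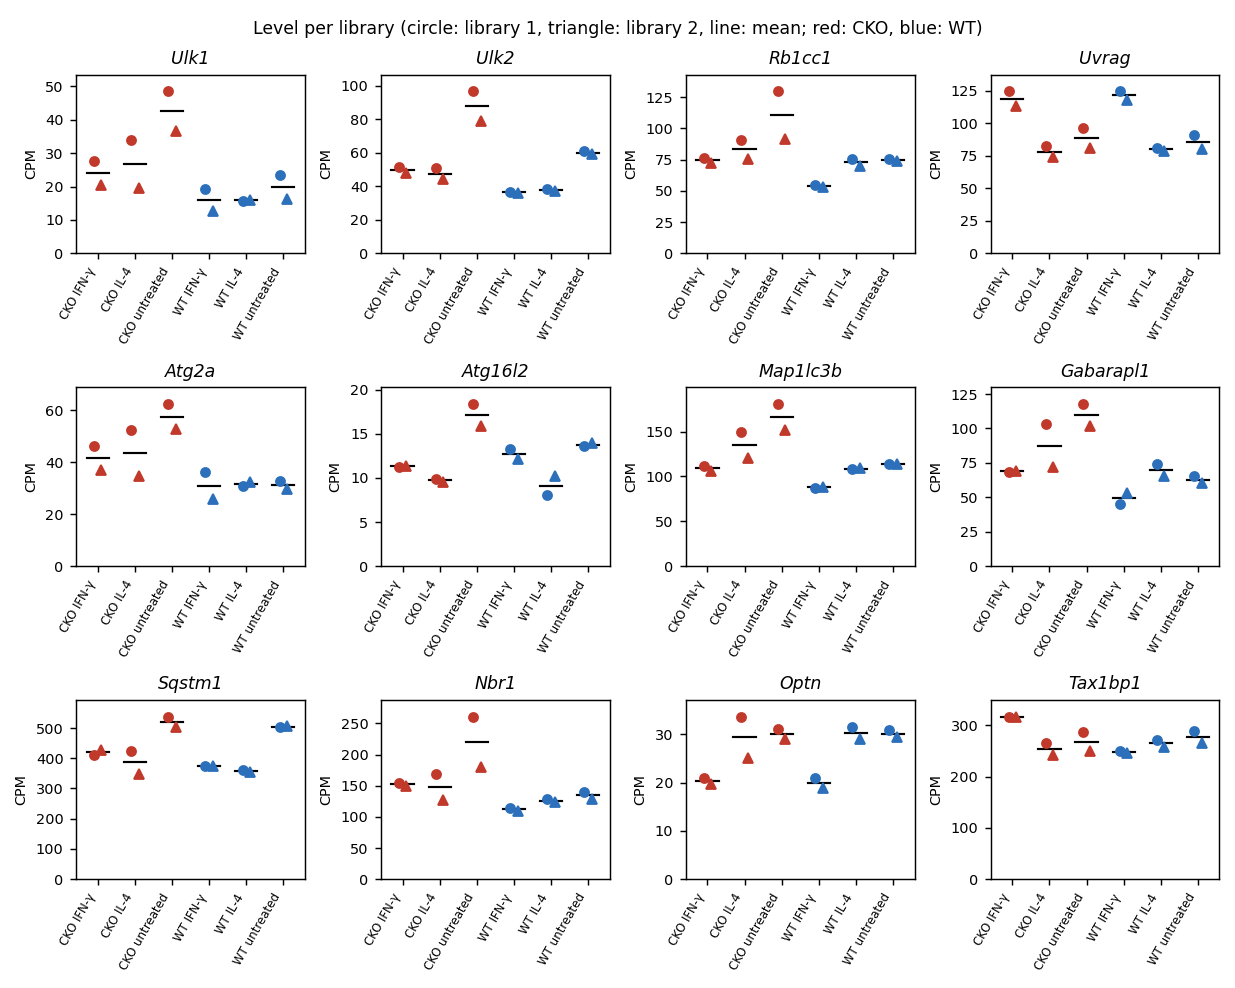
CPM of selected called genes in each library, a panel per gene with its own axis from 0, CKO groups left of WT groups and a bar at the mean of each pair of libraries. Ulk2 is lower in every cytokine-treated library than in either untreated library of its genotype, and Uvrag is higher in the 4 IFN-γ libraries than in the other 8.

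IFN-γ against untreated cells was compared within each genotype. In CKO cells 11 of the 37 genes fell with IFN-γ and 1 rose, Uvrag. Over all genes tested, 26.6% were called in this comparison, 11.9% lower and 14.7% higher. In WT cells 7 members fell and 2 rose, Uvrag and Atg16l1, where 24.2% of all genes were called, 11.8% lower and 12.4% higher. The median log2 fold change of the 37 was −0.17 in CKO and −0.25 in WT, against 0 over all genes in each. Among the 11 and the 7, the genes Ulk2, Rb1cc1, Pik3c3, Map1lc3b, Sqstm1 and Optn fell in both genotypes.

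Ulk2 had 51.7 and 48.1 CPM in IFN-γ CKO, against 97 and 78.8 CPM in untreated CKO, and fell by 0.82 on the log2 scale (SE 0.12, edgeR adjusted p = 0.000229). In WT it had 36.6 and 36.2 CPM with IFN-γ, against 60.9 and 59.4 CPM untreated, and fell by 0.72 (SE 0.12, edgeR adjusted p = 0.000614). Every IFN-γ library lay below every untreated library of either genotype. Ulk1 had 27.5 and 20.6 CPM in IFN-γ CKO, against 48.6 and 36.7 CPM in untreated CKO (−0.83 ± 0.29), and was not past the test by edgeR (adjusted p = 0.0591) but was by DESeq2 (adjusted p = 0.016). Ulk1 was not called in WT (−0.32 ± 0.3, edgeR adjusted p = 0.512). Rb1cc1 had log2 fold changes of −0.57 ± 0.15 in CKO (edgeR adjusted p = 0.0117) and −0.47 ± 0.15 in WT (edgeR adjusted p = 0.0346).

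Within the PI3-kinase complexes the catalytic subunit and an endosomal partner went opposite ways. Uvrag (ENSMUSG00000035354.9; chromosome 7, 98885021 to 99141141, minus strand) had 125 and 113 CPM in IFN-γ CKO, against 96.6 and 80.7 CPM in untreated CKO (log2 fold change 0.42 ± 0.11, edgeR adjusted p = 0.0147). In WT it had 125 and 118 CPM with IFN-γ, against 90.8 and 80.5 CPM untreated (0.5 ± 0.11, edgeR adjusted p = 0.00593). Pik3c3 had 36.8 and 37.5 CPM in IFN-γ CKO, against 52.5 and 44.8 CPM in untreated CKO (−0.39 ± 0.11, edgeR adjusted p = 0.0232). In WT Pik3c3 had 32.3 and 28.5 CPM with IFN-γ, against 39 and 39.5 CPM untreated (−0.37 ± 0.11, edgeR adjusted p = 0.0342). For both genes the 4 IFN-γ libraries did not overlap the untreated libraries of their genotype. Becn1, Pik3r4, Atg14 and Ambra1 had no call with IFN-γ in either genotype, with log2 fold changes from −0.26 to 0.3.

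Of the 5 receptors, 4 were called lower with IFN-γ in CKO, where 11.9% of all genes tested were lower. Sqstm1, Nbr1, Optn and Calcoco1 all lost these calls without IFN-γ CKO library 2. Sqstm1, Nbr1 and Calcoco1 also lost them without untreated CKO library 1, which stood apart. Optn (ENSMUSG00000026672.11; chromosome 2, 5020642 to 5064051, minus strand), which binds ubiquitin on bacteria and mitochondria, had 20.9 and 19.7 CPM in IFN-γ CKO, against 31.1 and 29 CPM in untreated CKO (log2 fold change −0.56 ± 0.14, edgeR adjusted p = 0.00936). Optn had nearly the same values in WT, 20.9 and 18.9 CPM with IFN-γ against 30.9 and 29.4 CPM untreated (−0.6 ± 0.14, edgeR adjusted p = 0.00693). Sqstm1 (ENSMUSG00000015837.15; chromosome 11, 50199366 to 50210827, minus strand) had 412 and 428 CPM in IFN-γ CKO, against 538 and 502 CPM in untreated CKO (−0.31 ± 0.1, edgeR adjusted p = 0.0442). In WT Sqstm1 had 373 CPM in both IFN-γ libraries, against 503 and 506 CPM untreated (−0.44 ± 0.1, edgeR adjusted p = 0.00822). No IFN-γ library of Optn or Sqstm1 reached an untreated one.

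Nbr1 and Calcoco1 fell with IFN-γ in CKO, with log2 fold changes of −0.54 ± 0.16 (edgeR adjusted p = 0.0299) and −0.71 ± 0.22 (edgeR adjusted p = 0.0304). In WT their log2 fold changes were −0.25 ± 0.16 and −0.35 ± 0.22, not past the test. Tax1bp1 was not called in either genotype, with 316 and 317 CPM in IFN-γ CKO, against 286 and 249 CPM in untreated CKO (0.24 ± 0.1, edgeR adjusted p = 0.0901). In WT Tax1bp1 had 249 and 246 CPM with IFN-γ, against 289 and 265 CPM untreated (−0.17 ± 0.1, edgeR adjusted p = 0.263).

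Among the ATG8 genes, Map1lc3b had 112 and 106 CPM in IFN-γ CKO, against 181 and 152 CPM in untreated CKO (log2 fold change −0.61 ± 0.12, edgeR adjusted p = 0.00203). In WT it had 87.1 and 88.8 CPM with IFN-γ, against 114 CPM in both untreated libraries (−0.37 ± 0.12, edgeR adjusted p = 0.0346). Gabarapl1 fell in CKO, at 68.4 and 69.5 CPM with IFN-γ against 118 and 102 CPM untreated (−0.67 ± 0.16, edgeR adjusted p = 0.00707). In WT Gabarapl1 had 45.1 and 53.5 CPM with IFN-γ, against 65.5 and 60.2 CPM untreated, not past the test (−0.35 ± 0.16, edgeR adjusted p = 0.14). The IFN-γ libraries of both genes lay below the untreated ones in each genotype. Of the proteases, Atg4b fell in CKO (−0.32 ± 0.1, edgeR adjusted p = 0.0328).

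Each of the 2 ATG16L paralogs was called with IFN-γ in 1 genotype, Atg16l1 higher in WT and Atg16l2 lower in CKO, and the difference between the paralogs was not tested. Atg16l1, which places the lipidation enzymes on membrane, had 67.4 and 59 CPM in IFN-γ WT, against 49.5 and 48.1 CPM in untreated WT (log2 fold change 0.37 ± 0.11, edgeR adjusted p = 0.0309). In CKO it had 57.8 and 59 CPM with IFN-γ, against 52.5 and 44.4 CPM untreated (0.27 ± 0.11, edgeR adjusted p = 0.103). Atg16l2 (ENSMUSG00000047767.17; chromosome 7, 101263034 to 101302251, minus strand) had 11.2 and 11.4 CPM in IFN-γ CKO, against 18.4 and 15.9 CPM in untreated CKO (−0.6 ± 0.14, edgeR adjusted p = 0.00604). In WT Atg16l2 had 13.3 and 12.1 CPM with IFN-γ, against 13.6 and 13.9 CPM untreated (−0.12 ± 0.14, edgeR adjusted p = 0.614). Atg12 fell in WT, at 38.2 and 40.1 CPM with IFN-γ against 56.9 and 54.8 CPM untreated (−0.51 ± 0.12, edgeR adjusted p = 0.00749), and in CKO it had a log2 fold change of −0.3 ± 0.12 (edgeR adjusted p = 0.0835). No membrane supply gene was past the test with IFN-γ in either genotype by edgeR or DESeq2, and at an unadjusted p under 0.05 there was 1 in CKO and 0 in WT, where 37.3% of all genes were past that limit in CKO and 33.7% in WT.

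The number of falls with IFN-γ moved with single libraries. In CKO it was 5 without untreated CKO library 1, 4 without IFN-γ CKO library 1 and 2 without IFN-γ CKO library 2, and 3 without the libraries of high Gm42418 share. In WT it was 2 without untreated WT library 1 or without the libraries of high Gm42418 share, and 4 without untreated WT library 2, either IFN-γ CKO library or either IL-4 WT library. Uvrag lost its call in CKO without untreated CKO library 2 or IFN-γ CKO library 1, and in WT without untreated WT library 2, while Ulk2 was past the test in both genotypes in every alternative run. Rb1cc1, Pik3c3 and Optn lost their calls in both genotypes when some single library of the compared groups was left out. So did Map1lc3b in WT and Sqstm1 in CKO.

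IL-4 against untreated cells gave 6 falls and 0 rises in CKO. Over all genes tested, 22.5% were called in this comparison, 11.3% lower and 11.2% higher. In WT there were 4 falls and 1 rise, Atg3, where 12.2% of all genes were called, 5.59% lower and 6.64% higher. At an unadjusted p under 0.05, 17 members were lower and 2 higher in CKO, where 18% of all genes were lower and 17.7% higher, and DESeq2 called 7 lower and 0 higher there. The median log2 fold change of the 37 was −0.26 in CKO and −0.06 in WT, against 0 over all genes in each. The 4 genes that fell in WT, Ulk2, Atg101, Atg16l2 and Sqstm1, also fell in CKO, where Nbr1 and Wipi2 fell as well.

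Ulk2 had 50.9 and 44.2 CPM in IL-4 CKO, against 97 and 78.8 CPM in untreated CKO (log2 fold change −0.89 ± 0.12, edgeR adjusted p = 0.000236). In WT it had 38.5 and 37.2 CPM with IL-4, against 60.9 and 59.4 CPM untreated (−0.67 ± 0.12, edgeR adjusted p = 0.00263). Atg101 (ENSMUSG00000037204.6; chromosome 15, 101284272 to 101290945, plus strand), which stabilises ATG13 in the kinase complex, had 16.7 and 19.6 CPM in IL-4 CKO, against 26.1 and 26.3 CPM in untreated CKO (−0.53 ± 0.11, edgeR adjusted p = 0.00579). In WT Atg101 had 16.9 and 17.6 CPM with IL-4, against 23.1 and 23.6 CPM untreated (−0.43 ± 0.11, edgeR adjusted p = 0.0257). Each IL-4 library of the 2 genes lay below every untreated library.

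Atg16l2 had 9.92 and 9.55 CPM in IL-4 CKO, against 18.4 and 15.9 CPM in untreated CKO (log2 fold change −0.82 ± 0.14, edgeR adjusted p = 0.00136). In WT it had 8.06 and 10.2 CPM with IL-4, against 13.6 and 13.9 CPM untreated (−0.58 ± 0.14, edgeR adjusted p = 0.0178). Its paralog Atg16l1 had log2 fold changes of −0.14 ± 0.11 in CKO and −0.06 ± 0.11 in WT, not past the test. Atg3 (ENSMUSG00000022663.3; chromosome 16, 45158785 to 45188538, plus strand), the E2-like enzyme that hands LC3 to lipid, had 85.8 and 76.5 CPM in IL-4 WT, against 55.7 and 64.1 CPM in untreated WT (0.44 ± 0.12, edgeR adjusted p = 0.029). In CKO Atg3 had 73.2 and 75.2 CPM with IL-4, against 58.1 and 60.4 CPM untreated, without overlap and not past the test (0.32 ± 0.12, edgeR adjusted p = 0.0642).

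Sqstm1 had 425 and 348 CPM in IL-4 CKO, against 538 and 502 CPM in untreated CKO (log2 fold change −0.43 ± 0.1, edgeR adjusted p = 0.0118). In WT it had 361 and 355 CPM with IL-4, against 503 and 506 CPM untreated (−0.49 ± 0.1, edgeR adjusted p = 0.00812). The IL-4 libraries did not overlap the untreated ones. Nbr1 fell in CKO, at 169 and 127 CPM with IL-4 against 261 and 180 CPM untreated (−0.57 ± 0.16, edgeR adjusted p = 0.0271), and Wipi2 fell there by 0.35 (SE 0.11, edgeR adjusted p = 0.0436). In WT Nbr1 had a log2 fold change of −0.1 ± 0.16 and Wipi2 of −0.05 ± 0.11. Optn, which fell with IFN-γ, had 33.7 and 25.1 CPM in IL-4 CKO, against 31.1 and 29 CPM in untreated CKO (−0.03 ± 0.14, edgeR adjusted p = 0.893).

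Falls with IL-4 numbered 3 in CKO without untreated CKO library 1 or IL-4 CKO library 2, 13 without untreated CKO library 2 and 12 without IL-4 CKO library 1. In WT they numbered 2 without either untreated WT library or IL-4 WT library 2, and 1 without IL-4 WT library 1. Atg3 lost its call without either untreated WT library, either IL-4 WT library or IFN-γ CKO library 2.

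**Figure D5:**
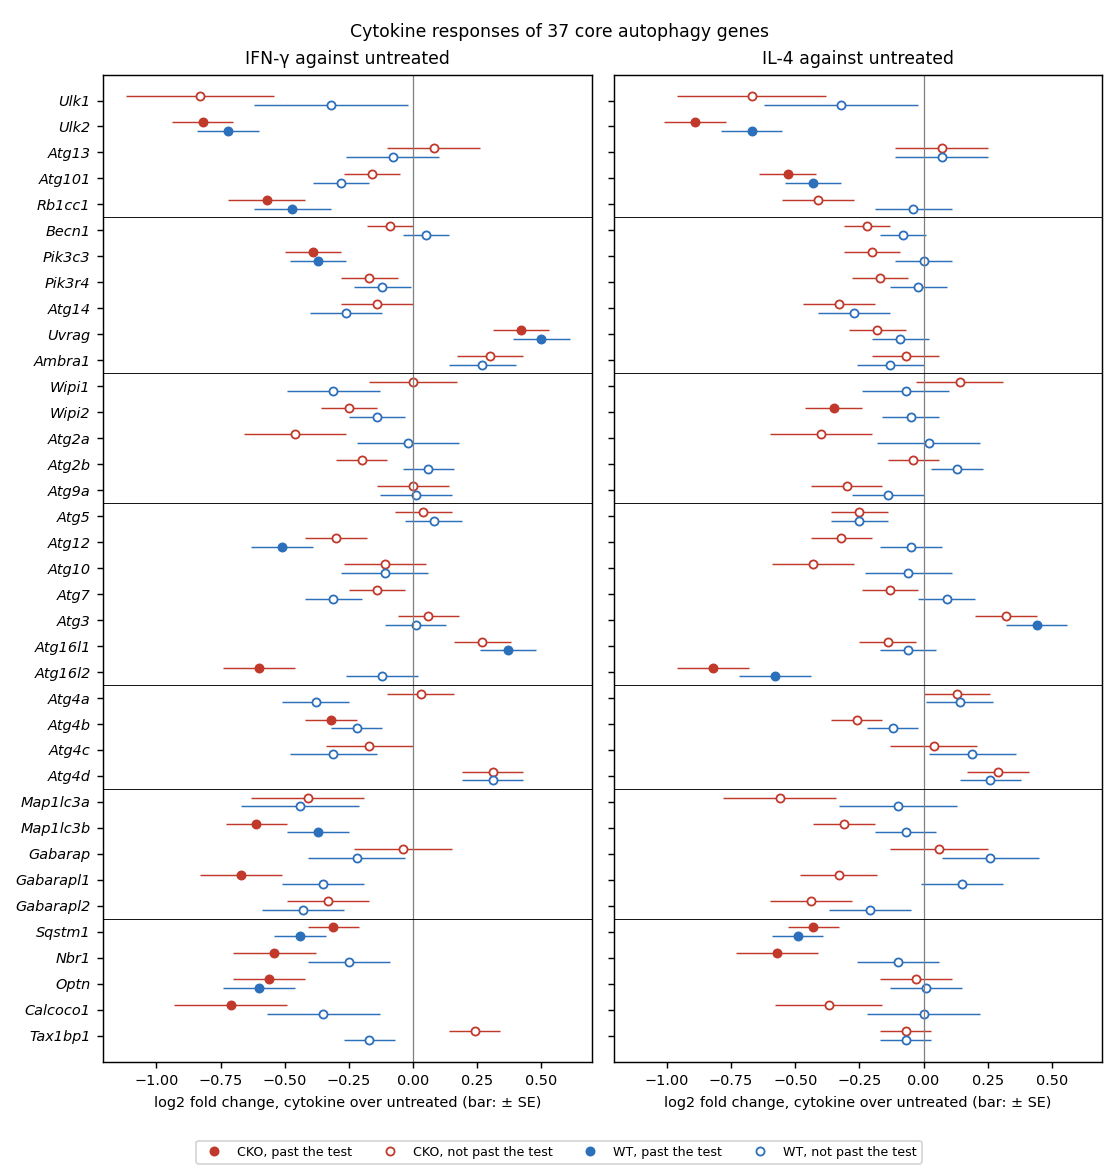
log2 fold change of IFN-γ and of IL-4 over untreated cells for each of the 37 genes, in CKO and in WT, with bars of ± 1 SE, filled points past the test and open points not past it. Ulk2 and Sqstm1 are filled and left of 0 in all 4 comparisons, and Uvrag is filled and right of 0 in both IFN-γ comparisons.

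Over the 4 cytokine comparisons, which share untreated libraries within each genotype, 14 of the 37 genes (37.8%) fell in at least 1, against 23.9% of all genes tested. In at least 1 of the 4, 3 members (8.11%) rose, Uvrag, Atg16l1 and Atg3, against 26.1% of all genes. Ulk2 and Sqstm1 fell in all 4, which is 5.41% of the members against 1.26% of all genes tested (206 of 16292). The 4 Ulk2 calls were kept in every alternative run, but each of the 4 Sqstm1 calls was lost in at least 1. With only the compared groups fitted, Sqstm1 lost its calls in CKO with both cytokines. Counting the genotype comparisons as well, 22 members (59.5%) were called in at least 1 of 7 comparisons, against 51.6% of all genes tested. The 15 called in none were Atg13, Becn1, Pik3r4, Atg14, Ambra1, Atg2b, Atg9a, Atg5, Atg10, Atg4a, Atg4c, Atg4d, Map1lc3a, Gabarap and Gabarapl2. Beclin 1, the regulatory subunit of VPS34, ranged over 68.2 to 90.4 CPM in the 12 libraries, and the uncertain overlap with Cntd1 applies to it.

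The genotype by cytokine interactions asked whether a response differed between CKO and WT, and no member was past the test in either. For IFN-γ, where 2.72% of all genes tested were called, 2.07% higher and 0.651% lower, DESeq2 called 0 members, and 2 members had an unadjusted p under 0.05, as had 13.1% of all genes. These were Tax1bp1 (CKO minus WT 0.41 ± 0.14 on the log2 scale, edgeR adjusted p = 0.187) and Atg16l2 (−0.48 ± 0.19, edgeR adjusted p = 0.291). Calls made in 1 genotype and missed in the other, as for Gabarapl1, Nbr1, Calcoco1 and Atg12 with IFN-γ, are therefore not shown to differ between genotypes. For IL-4, where 0.0368% of all genes were called, 0.0246% higher and 0.0123% lower, 0 members were called by edgeR or DESeq2 and 0 had an unadjusted p under 0.05, where 6.02% of all genes did. The IL-4 interaction estimates were negative for 32 of the 37 genes, with a median of −0.16 against 0 over all genes, and all of them rest on the 2 untreated CKO libraries, 1 of which stood apart.

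The other genes of the pathway were 67, in lists for nutrient sensing and transcription (21), fusion with lysosomes (14), other phagophore proteins (15) and other selective autophagy (17), and all 67 were tested. CKO against WT gave 10 higher and 6 lower in untreated cells, where 8.6% of all genes tested were higher and 9.37% lower. After IFN-γ it gave 11 higher and 2 lower (10.4% and 8.01% of all genes). After IL-4 it gave 0 higher and 1 lower (1.41% and 1.55% of all genes). IFN-γ gave 20 falls and 8 rises in CKO, where 11.9% of all genes fell and 14.7% rose. In WT it gave 18 falls and 5 rises (11.8% and 12.4% of all genes). IL-4 gave 15 falls and 6 rises in CKO (11.3% and 11.2% of all genes). In WT it gave 5 falls and 4 rises (5.59% and 6.64% of all genes).

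Atg9b, the less widely expressed relative of Atg9a, had 1.18 and 1.12 CPM in untreated CKO, against 5.38 and 7.23 CPM in untreated WT (log2 fold change −2.45 ± 0.26, edgeR adjusted p = 0.000149). It was also lower in CKO after IFN-γ (−1.75 ± 0.31, edgeR adjusted p = 0.00226) and after IL-4 (−1.23 ± 0.23, edgeR adjusted p = 0.0148), the last of which was lost without IL-4 CKO library 1 or either IL-4 WT library and with only the 2 compared groups fitted (edgeR adjusted p = 0.0636). Bcl2l1, whose protein BCL-XL binds Beclin 1, had 27.3 and 57.1 CPM in untreated CKO, against 139 and 161 CPM in untreated WT (−1.83 ± 0.32, edgeR adjusted p = 0.00597). In untreated cells both genes had each CKO library below each WT library, opposite in sign to the 8 core genes called in untreated cells. Most calls among the other pathway genes there had the sign of the core, with 10 higher and 6 lower. Flcn, Akt1s1, Ccpg1, Ncoa4 and Pink1 were among the 10.

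Irgm1, an immunity-related GTPase that IFN-γ is known to induce, had 1340 and 1370 CPM in IFN-γ CKO, against 32.1 and 29.2 CPM in untreated CKO (log2 fold change 5.47 ± 0.18, edgeR adjusted p = 9e-10). In WT Irgm1 had 1000 and 1040 CPM with IFN-γ, against 27.2 and 26.7 CPM untreated (5.24 ± 0.18, edgeR adjusted p = 1.43e-09). Trim30a, a TRIM protein, rose with IFN-γ by 2.43 ± 0.15 in CKO (edgeR adjusted p = 1.37e-07) and 1.83 ± 0.14 in WT (edgeR adjusted p = 1.67e-06) on the log2 scale. Both genes were far above untreated levels in all 4 IFN-γ libraries. Deptor, an inhibitor of mTOR, had 13.2 and 10.2 CPM in IFN-γ CKO, against 39.4 and 31.1 CPM in untreated CKO (−1.59 ± 0.18, edgeR adjusted p = 4.8e-05), and fell by 2.08 in WT (SE 0.2, edgeR adjusted p = 8.82e-06).

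Retreg1, the endoplasmic reticulum receptor listed in the file as Fam134b, had 20.3 and 20.5 CPM in IL-4 CKO, against 81.9 and 76.7 CPM in untreated CKO (log2 fold change −1.96 ± 0.09, edgeR adjusted p = 1.31e-07). In WT Retreg1 had 20.7 and 21 CPM with IL-4, against 80.4 and 74.2 CPM untreated (−1.89 ± 0.1, edgeR adjusted p = 2.2e-07). Prkaa2, a catalytic subunit of AMPK, rose with IL-4 to 6.03 and 6.48 CPM in CKO, against 0.569 and 0.519 CPM untreated (3.52 ± 0.21, edgeR adjusted p = 6.3e-07), and by 3.4 ± 0.2 on the log2 scale in WT (edgeR adjusted p = 8.54e-07). Tfeb, a transcription factor of lysosomal and autophagy genes, had 52.2 and 36.7 CPM in IL-4 CKO, against 24.7 and 23.5 CPM in untreated CKO (0.88 ± 0.14, edgeR adjusted p = 0.00126). In WT Tfeb had 38.9 and 37.4 CPM with IL-4, against 19.4 and 20.7 CPM untreated (0.92 ± 0.15, edgeR adjusted p = 0.00137). In these 3 genes no IL-4 library overlapped an untreated library of its genotype.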

How the data were processed

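The deposited counts are whole numbers per gene in 12 libraries. Per the labels' protocols the libraries were made with an RNA exome kit. Per the submitters' processing notes the authors' tools were HTSeq 0.6.1, Picard 1.97, TopHat2 2.0.13 and CASAVA 1.8.2, and the builds mm10 and GRCh38 are named without roles. Identifiers are mouse Ensembl genes. Neither strand setting nor annotation release is given in the sources used here.

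The filterByExpr step of edgeR kept 16292 of 48440 genes. Counts were scaled by TMM, and the quasi-likelihood test of edgeR 4.0.16 (R 4.3.3, robust) was run on all 12 libraries with a mean per group and 6 residual degrees of freedom. P-values were adjusted by Benjamini-Hochberg over all genes tested within each of 9 comparisons, with a threshold of 0.05. The SE is approximate, as the size of the log2 fold change divided by the root of F. CPM are TMM-scaled counts per 1000000. With 2 libraries a group, 17 to 33 of the 37 genes had no overlap in each comparison of 2 groups. The share of all genes without overlap was not computed.

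Members and lists were chosen with earlier results of these data known. Every member past the test was named, with values per library for those of largest change, and genes of the pathway lists came from the 3 of smallest adjusted p in a list. Positions and exon lengths came from GENCODE M21 (GRCm38) by identifier without version (27 of 37 versions matched), and promoters from RefSeq GRCm38.p6. Replicates differed beyond sampling noise (chi-square per degree of freedom 4.72 to 83.8). Alternatives were DESeq2 1.42.0 and its size factors inside edgeR, no low-count filter, a mean CPM of at least 5, a fit of only the groups compared, blocks by library number overall or inside each genotype, and leaving out each library. A fit without the 3 libraries of highest Gm42418 share was chosen after seeing the data. Both tools were tried on simulated counts with known changes.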

Additional observations from a re-analysis of the deposited data

Results flagged for a closer look

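Among the 37 core genes and the 67 others of the pathway, the IFN-γ response differed between genotypes past the test for Snx7 and Bnip3, both outside the core. Snx7, a sorting nexin that works with SNX4 in the traffic of ATG9A, had 21 and 21.8 CPM in IFN-γ CKO, against 28 and 25.3 CPM in untreated CKO, and 16.3 and 16.1 CPM in IFN-γ WT, against 32.8 and 35.4 CPM in untreated WT. The difference in response, CKO minus WT, was 0.76 ± 0.15 on the log2 scale (edgeR adjusted p = 0.0194). Bnip3, a mitochondrial receptor, had 27 and 28.4 CPM in IFN-γ CKO, against 34.4 and 25.1 CPM in untreated CKO, and 46.9 and 52.3 CPM in IFN-γ WT, against 29.8 and 26.6 CPM in untreated WT. Its difference in response was −0.92 ± 0.2 (edgeR adjusted p = 0.0378). Fitted on the 4 groups compared alone, the edgeR adjusted p was 0.0506 for Snx7 and 0.0851 for Bnip3, and without the 3 libraries of high Gm42418 share it was 0.0913 and 0.0979. Leaving out any one IFN-γ library, either untreated WT library or IL-4 WT library 1 also ended both calls, and Bnip3 was also lost without untreated CKO library 1 or IL-4 WT library 2.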

How the results depend on the processing

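Of the 46 member calls, 30 were kept in each alternative that left out no library, and 0 changed direction. Leaving out single libraries, or the 3 of highest Gm42418 share, lost many more of the 46. With only the compared groups, calls of members numbered 3 higher for CKO against WT untreated, 0 higher and 7 lower for IFN-γ in CKO, and 2 lower for IL-4 in CKO. With no filter they numbered 12 and 3 higher for CKO against WT after IFN-γ and after IL-4, and 10 lower for IL-4 in CKO. Without the 3 libraries of highest Gm42418 share they numbered 0 higher for CKO against WT untreated, 3 higher and 3 lower for IFN-γ in CKO, 1 higher and 2 lower for IFN-γ in WT, and 0 higher and 2 lower for IL-4 in WT. The causes were not tested.

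Leaving out each library in turn gave 0 to 15, 0 to 10 and 0 to 2 members higher for CKO against WT untreated, after IFN-γ and after IL-4. It gave 0 to 3 higher and 2 to 13 lower for IFN-γ in CKO, 0 to 3 higher and 2 to 9 lower for IFN-γ in WT, 0 to 1 higher and 3 to 13 lower for IL-4 in CKO, and 0 to 1 higher and 1 to 4 lower for IL-4 in WT. A group left with 1 library is assumed to vary like the others.

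The labels do not say that the numbers 1 and 2 pair libraries, and deviations of same-numbered libraries correlated at −0.01 to 0.43 over the 15 pairs of groups, and at 0.1 to 0.43 over the 6 pairs within a genotype, with 2 libraries a group. With the replicate block, members called numbered 12 and 1 higher for CKO against WT after IFN-γ and after IL-4, 2 higher for IFN-γ in CKO, 11 lower for IFN-γ in WT, and 1 higher and 13 lower for IL-4 in CKO. With the replicate block within genotype they numbered 3 higher for IFN-γ in CKO, 11 lower for IFN-γ in WT, and 1 higher and 16 lower for IL-4 in CKO. The block lost 0 calls.

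Depth was lowest for Map1lc3a (66 to 201 counts), with an SE of 0.22 to 0.23 in the 7 comparisons of 2 groups.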
